A study of Rattus norvegicus with 10 samples.

Results

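The solute carrier (SLC) genes are the largest group of membrane transporter genes, and their expression was examined in splenic M2 macrophages of rats with and without glomerulonephritis. Every gene whose symbol begins with Slc and a family number was taken, except the iron exporter Slc40a1. This gave 158 of the 9003 genes with values, in 40 numbered families, of which 17 held at least 3 genes. The symbols Slc4a1ap, Slc7a6os and Slc9a3r1 fit this rule although their products are not transporters.

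RNA-seq was performed on 10 libraries of sorted cells from female WKY/NCrj rats in 4 groups. The control group (n = 2) came from rats in the physiological condition. The GN group (n = 2) came from rats given TF78, a mouse monoclonal antibody against the glomerular basement membrane that causes glomerulonephritis, without cell therapy. The EV+ (n = 3) and EV- (n = 3) groups came from nephritic rats given human adipose-derived mesenchymal stem cells (ASCs) whose membranes had been labelled with DiD dye. EV+ macrophages carried the dye, taken as the sign that extracellular vesicles (EVs) had been transferred, and EV- macrophages did not. Dye marks membrane of ASC origin and not vesicles alone, and the nephritic rats of the EV+ and EV- groups had all received ASCs. The day of harvest for these libraries and the number of rats behind each library were not given in the sources used here. Whether EV+ and EV- libraries of the same number came from the same rats was not given either. Counts of libraries over both groups may therefore not be counts of separate rats. The labels give no ages, and the study's methods give only 1 age range, of young adults, for rats of the nephritis model.

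SLC proteins move solutes across the plasma membrane and across the membranes of organelles, by facilitated diffusion, by exchange for another solute or coupled to an ion gradient. The family number groups proteins of related sequence, which often share a kind of substrate. Macrophages are known to depend on them for glucose uptake, lactate release, amino acid supply to mTORC1, lysosomal export, phagosomal metal withdrawal and the exchange of nucleotides between cytosol and mitochondria. Family names used below follow this scheme: Slc2 carries hexoses, Slc7 amino acids, Slc12 chloride with sodium or potassium, Slc25 metabolites across the inner mitochondrial membrane, Slc30 zinc out of the cytosol, Slc35 nucleotide sugars into the Golgi apparatus, and Slc39 zinc into the cytosol.

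The libraries held between 19270515 and 26617093 reads over the listed genes, so that 3 reads were worth 0.113 to 0.153 units of CPM, the count of reads scaled to a fixed library size. Levels are given below as CPM on the trimmed mean of M-values (TMM) scale, and fold changes as log2 of CPM + 1, which understates the change of low genes. Of 10 macrophage markers 9 were listed, and their sum was 24386 and 24723 CPM in the control libraries against 28539 to 30624 in the other 8. Most of this sum was Lyz2, at 15325 to 20176 CPM, and the mean of Cd68 was 1345 in control and 1247 in GN. Csf1r, Cd68, Adgre1 and Lyz2 were high in all 10 libraries. Of the same list, C1qa was low at 1.75 to 8.59 CPM and C1qb at 2.06 to 11.2. Cd163 and Mrc1, often used as markers of M2 cells, were between 0 and 1.81 CPM. EV- replicate 1 stood apart: its 8 listed NK and T cell markers summed to 521 CPM, against 81.5 and 39.1 in EV- replicates 2 and 3 and 13.6 to 31.02 elsewhere. The 2 listed erythroid markers, Hba1 and Hbb, summed to 1.19 and 1.61 CPM in control libraries, 7.26 and 6.44 in GN and 3.28 to 6.30 in the EV+ and EV- libraries. The 4 listed B cell markers summed to 391.6 and 456 CPM in control, 319 and 395 in GN and 347 to 461 in the EV+ and EV- libraries. In such bulk samples, fewer cells of a type and less RNA per cell cannot be told apart.

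Among the 4 groups, 4 SLC genes passed a false discovery rate (FDR) of 0.1 in limma, against 2.57% of all genes. These were Slc2a6 (adjusted p = 0.0387), Slc1a4 (adjusted p = 0.0617), Slc35c2 (adjusted p = 0.0750) and Slc11a1 (adjusted p = 0.0915). Slc11a1 lost this call with edgeR's quasi-likelihood test (adjusted p = 0.103). Blocking on the replicate number within the EV+ and EV- groups raised the count to 11. Without control replicate 1, control replicate 2 or GN replicate 1 it was 1, 0 and 0, and it was 2 without any of GN replicate 2, EV+ replicate 3, EV- replicate 1 or EV- replicate 3. Over the 6 pairwise comparisons and this test, 10 SLC genes were called at least once, and their levels in each library are plotted.

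**Figure D1:**
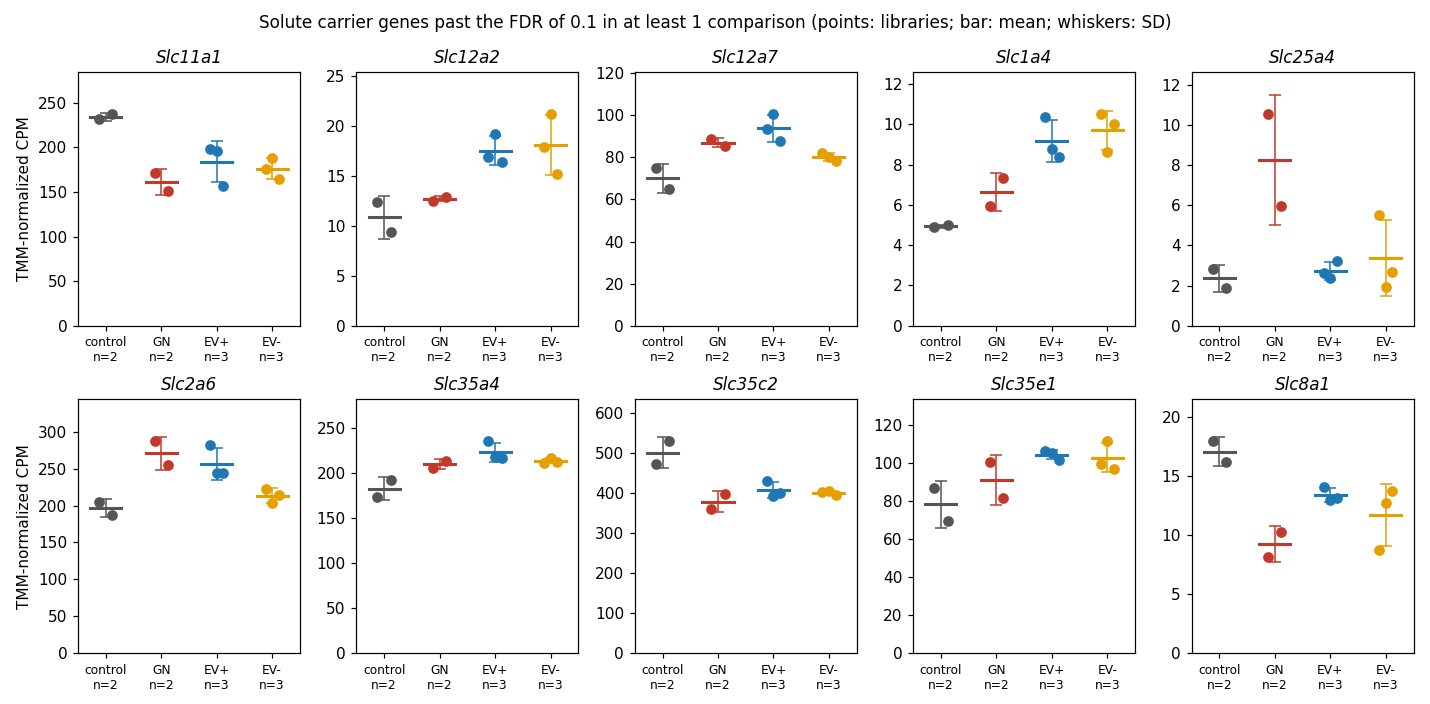
TMM-normalized CPM (y axis, from 0) of the 10 SLC genes past the FDR of 0.1 in at least 1 comparison, in the control, GN, EV+ and EV- groups (x axis). Points are libraries, bars group means and whiskers the SD. Slc11a1, Slc35c2 and Slc8a1 are highest in the control libraries, Slc25a4 in GN, and Slc1a4 and Slc12a2 in EV+ and EV-.

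The start regions of 3 of these 4 genes are shown because their transcripts differed among the groups. They were taken from RefSeq on the GRCr8 build, which differs from the rn6 build of the reads, and span 250 bases before to 50 bases after the annotated start. Of the 158 SLC genes 125 had such an entry, and Slc11a1 had none. Capitals mark matches, on either strand, to any of 5 motifs: the C/EBP-ATF element TTGCATCA, the E box CACGTG, the CCAAT box, the GC box GGGCGG and the ETS core CCGGAAG.
Slc1a4, chr14:98761513-98761812, minus strand: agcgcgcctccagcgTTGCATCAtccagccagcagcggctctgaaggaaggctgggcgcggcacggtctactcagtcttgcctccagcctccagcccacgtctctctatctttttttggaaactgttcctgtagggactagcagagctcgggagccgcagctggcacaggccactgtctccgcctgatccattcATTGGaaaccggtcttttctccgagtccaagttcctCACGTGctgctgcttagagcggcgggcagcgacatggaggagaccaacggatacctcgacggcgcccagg
Slc2a6, chr3:30753238-30753537, minus strand: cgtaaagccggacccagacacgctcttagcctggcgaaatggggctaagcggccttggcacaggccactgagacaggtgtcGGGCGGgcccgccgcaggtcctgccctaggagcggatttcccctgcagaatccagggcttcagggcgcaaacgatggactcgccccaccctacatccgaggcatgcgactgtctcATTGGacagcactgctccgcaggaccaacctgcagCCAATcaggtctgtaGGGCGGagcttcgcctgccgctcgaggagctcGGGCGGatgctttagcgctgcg
Slc35c2, chr3:174442733-174443032, minus strand: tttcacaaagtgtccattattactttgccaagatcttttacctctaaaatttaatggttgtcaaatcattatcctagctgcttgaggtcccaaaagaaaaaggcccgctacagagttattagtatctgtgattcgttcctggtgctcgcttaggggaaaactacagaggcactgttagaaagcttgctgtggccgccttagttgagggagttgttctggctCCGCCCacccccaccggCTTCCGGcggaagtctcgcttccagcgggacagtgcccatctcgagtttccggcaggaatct

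The C/EBP-ATF element lay at -235 from the start in Slc1a4, where an inverted CCAAT box lay at -56 and an E box at -20. This element was found in 0.795% of 33469 rat promoters and in 1.55% of the 129 promoters listed for SLC genes. The window of Slc2a6 held 3 GC boxes and 2 CCAAT boxes, and that of Slc35c2 held 1 GC box and 1 ETS core. GC boxes were found in 33.1% of all promoters and in 89 of the 129 SLC promoters, CCAAT boxes in 37.5% and 39.5%, E boxes in 6.42% and 13.2%, and the ETS core in 8.75% and 18.6%. No matches overlapped in these 3 windows. A match of letters is a description of the sequence only.

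The comparison of GN with control asked how these transcripts differed in rats given TF78 to cause nephritis. None of the 4 groups received a control antibody, so nephritis and the injected antibody cannot be told apart. In GN macrophages, the glucose transporter family gene Slc2a6 and the mitochondrial ADP/ATP carrier gene Slc25a4 rose, and the metal transporter gene Slc11a1, the Golgi gene Slc35c2 and the calcium exchanger gene Slc8a1 fell. These 5 of 158 genes (limma, FDR under 0.1) compare with 1.75% of all genes, with 0.933% called higher and 0.822% called lower. The other 153 SLC genes did not pass.

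Slc11a1 encodes NRAMP1, which pumps iron and manganese out of the phagosome and limits the growth of ingested microbes. Its level was 231 and 237 CPM in control, 172 and 151 in GN, 198, 197 and 157 in EV+, and 176, 188 and 165 in EV- macrophages. Every library from nephritic rats was below both control libraries, and the GN, EV+ and EV- values overlapped. The GN value differed from control by -0.54 ± 0.11 (log2 fold change ± SE, adjusted p = 0.0392).

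Slc35c2, a Golgi protein of the nucleotide sugar transporter family, was at 473 and 529 CPM in control libraries and 359 and 398 in GN. The EV+ libraries held 431, 391.6 and 399 CPM and the EV- libraries 402, 404 and 394. All 8 libraries from nephritic rats were again lower than both controls. In GN the difference was -0.40 ± 0.08 (SE, adjusted p = 0.0368).

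Slc8a1 encodes the sodium-calcium exchanger NCX1 of the plasma membrane. It was at 17.9 and 16.2 CPM in control, 8.16 and 10.3 in GN, 14.1, 12.9 and 13.2 in EV+, and 8.75, 12.7 and 13.7 in EV-. Only EV- replicate 1 was as low as the GN libraries. The GN difference was -0.83 ± 0.21 (SE, adjusted p = 0.0854).

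Slc2a6 encodes GLUT6, a member of the facilitative hexose transporter family held on lysosomal membranes. Control libraries were at 205 and 187 CPM, GN at 287 and 255, EV+ at 282, 244 and 244, and EV- at 223, 203 and 215. The GN and EV+ libraries lay above all control and EV- libraries, and the control and EV- ranges overlapped. The GN difference from control was 0.46 ± 0.10 (SE, adjusted p = 0.0368).

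Slc25a4 encodes ANT1, which exchanges ADP for ATP across the inner mitochondrial membrane. It was low in all groups, at 2.85 and 1.90 CPM in control, 10.5 and 5.95 in GN, 2.62, 2.36 and 3.21 in EV+, and 5.49, 1.94 and 2.68 in EV-. The GN libraries were the 2 highest but differed from each other more than the control and EV+ libraries did. The GN difference was 1.42 ± 0.35 (SE, adjusted p = 0.0849) and did not pass by edgeR's quasi-likelihood test. ANT genes have near-identical copies in the genome, so that the counting of their reads is uncertain.

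The sister gene Slc25a5 (ANT2) was at 1137 and 1237 CPM in control and 1377 and 1334 in GN libraries, a difference that did not pass. Slc1a5, the glutamine transporter ASCT2, was at 13.8 and 13.3 CPM in control and 25.5 and 17.6 in GN (log2 fold change 0.61, adjusted p = 0.302). Slc9a5, a sodium-proton exchanger, was at 6.20 and 8.29 CPM in control and 5.48 and 3.20 in GN (-0.65, adjusted p = 0.324). In each of these genes the groups did not overlap, yet the difference was not beyond the pooled spread after adjustment.

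With 2 libraries in each group, these GN calls depended on single libraries. None of the 158 genes was called without control replicate 2, GN replicate 1 or GN replicate 2, 2 were called without control replicate 1, and 3 without EV+ replicate 3. Hba1 and Hbb also rose from control to GN (adjusted p = 0.0439 and 0.0239). Of the 4 B cell markers Cd79b fell, from 87.0 and 108.9 CPM in control to 42.1 and 67.6 in GN (-0.85, adjusted p = 0.0331), and the other 3 were not called. Of the 9 listed macrophage markers 7 were above 0 and only Itgam was called, as higher. The part of these markers in the SLC changes was not tested.

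The comparison of EV+ with control joined the effects of TF78 and nephritis, ASC treatment and dye uptake. Here 7 SLC genes passed, against 3.63% of all genes. The amino acid exchanger Slc1a4, the chloride cotransporters Slc12a2 and Slc12a7, the glucose family gene Slc2a6 and the Slc35 genes Slc35a4 and Slc35e1 were higher, 6 genes against 1.82% of all genes. Slc35c2 alone was lower, against 1.81% of all genes. The same 2 control libraries served in all comparisons with control, so that these are not independent of each other. Of the 9 listed macrophage markers, Itgam, Csf1r and Adgre1 were also called higher in EV+, and 6 were above 0. Cd68 (-0.006), Cd163 (-0.37) and Mrc1 (-0.44) were below 0 without a call.

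Slc1a4 encodes ASCT1, an exchanger of alanine, serine, cysteine and threonine. Its level was 4.89 and 4.99 CPM in control, 5.96 and 7.31 in GN, 10.4, 8.76 and 8.39 in EV+, and 10.5, 8.61 and 9.9996 in EV-. The 6 libraries from ASC-treated rats were above both GN libraries, which in turn were above both controls. The difference from control was 0.77 ± 0.18 (SE, adjusted p = 0.0394) in EV+ and 0.85 ± 0.18 (SE, adjusted p = 0.0305) in EV-.

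Slc12a2 encodes NKCC1, which brings sodium, potassium and chloride into the cell and takes part in volume control. Control libraries held 12.4 and 9.36 CPM, GN 12.5 and 12.9, EV+ 16.96, 19.2 and 16.5, and EV- 17.9, 21.2 and 15.2. The EV+ and EV- libraries were higher than every control and GN library. The log2 fold change against control was 0.65 ± 0.17 (SE, adjusted p = 0.0685) in EV+ and 0.69 ± 0.17 (SE, adjusted p = 0.0651) in EV-.

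Slc12a7 encodes KCC4, which moves potassium and chloride in the outward direction. It was at 74.999 and 65.0 CPM in control, 88.5 and 85.3 in GN, 93.4, 100.5 and 87.5 in EV+, and 82.2, 80.4 and 78.4 in EV-. All EV+ libraries exceeded all EV- libraries, which exceeded both controls. The EV+ difference from control was 0.42 ± 0.09 (SE, adjusted p = 0.0324).

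Of the other genes called here, Slc2a6 differed by 0.38 ± 0.09 (SE, adjusted p = 0.0392) from control, at the levels given above. Slc35a4 rose from 173 and 191 CPM in control to 235, 217 and 216 in EV+ (0.29, adjusted p = 0.0708). Slc35e1, a Slc35 gene without a settled substrate, rose from 87.0 and 69.4 CPM to 106, 105 and 102 (0.42, adjusted p = 0.0807), a call lost with edgeR's quasi-likelihood test (adjusted p = 0.111). Slc35c2 fell by 0.30 on the log2 scale (adjusted p = 0.0674), and lost this call with the replicate number as a block over all groups (adjusted p = 0.101).

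Among the genes with larger fold changes that did not pass, the sulfate transporter Slc26a2 was at 6.24 and 3.92 CPM in control and 6.25, 7.37 and 10.04 in EV+ (0.55, adjusted p = 0.282). Slc25a37, mitoferrin 1, which brings iron into mitochondria, was at 16.8 and 11.6 CPM in control and 8.63, 9.47 and 10.5 in EV+ (-0.51, adjusted p = 0.265). Slc38a6 was at 42.6 and 31.02 CPM in control and 30.98, 28.1 and 23.96 in EV+ (-0.39, adjusted p = 0.276).

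Blocking on the replicate number within EV+ and EV- raised the count in EV+ against control from 7 to 12. The genes added were Slc16a3, Slc39a13 and the riboflavin transporter Slc52a3 on the higher side, and Slc11a1 and Slc25a25 on the lower side. Without control replicate 2 no gene was called, and without EV+ replicate 3 the count was 3.

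In EV- macrophages 4 SLC genes differed from control, against 2.84% of all genes. Slc1a4 and Slc12a2 were higher, as given above, against 1.29% of all genes called higher. Slc11a1 (-0.41 ± 0.10, SE, adjusted p = 0.0720) and Slc35c2 (-0.32 ± 0.08, SE, adjusted p = 0.0564) were lower, against 1.56%. With the block within EV+ and EV- the count was 9, and Slc25a25, Slc35a4, Slc35a5, Slc35e1 and Slc52a3 were added. No call remained without control replicate 2, 1 remained without EV- replicate 1 and 2 without EV- replicate 2. The markers Itgam, Prf1 (NK and T cell) and Hbb (erythroid) were also called higher in EV-, and no other listed marker was called. Of the 9 macrophage markers 5 were above 0.

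The comparisons of EV+ and EV- with GN joined ASC treatment with the selection of cells by dye, and share the 2 GN libraries. GN cells were not divided by dye, so treatment and selection cannot be told apart here. No SLC gene passed in EV+ against GN, where 0.122% of all genes did. At an unadjusted p under 0.05 there were 11 SLC genes (7.13% of all genes), 8 higher (3.99% of all genes) and 3 lower (3.14%). In EV- against GN none passed either, with 0.378% of all genes called, and 10 SLC genes had an unadjusted p under 0.05 (7.85% of all genes). The 95% intervals of these log2 fold changes reached a median of 0.352 to either side over the SLC genes.

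Slc25a4 gave the lowest fold change in each case, -1.27 in EV+ (limma, adjusted p = 0.356) and -1.12 in EV- (limma, adjusted p = 0.315). By edgeR's likelihood-ratio test and by DESeq2 it was the only SLC gene called in EV+ against GN. With the block within EV+ and EV- it passed in both comparisons (limma, adjusted p = 0.0700 in EV+ and 0.0982 in EV-). It also passed in EV- against GN when EV- replicate 1 was left out (limma, adjusted p = 0.0837).

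Slc2a6 differed by -0.34 between EV- and GN (limma, adjusted p = 0.240), and was called with the block (adjusted p = 0.0321) and by the likelihood-ratio test and DESeq2. The lactate exporter gene Slc16a3 (MCT4) was at 650 and 570.5 CPM in GN, 694, 744 and 732 in EV+, and 646, 653 and 741 in EV-. Its EV+ libraries lay above both GN libraries (log2 fold change 0.25, limma, adjusted p = 0.536). Slc12a2 and Slc1a4 had fold changes of 0.43 and 0.41 in EV+ and 0.46 and 0.49 in EV- against GN, with no overlap of libraries and no adjusted p under the threshold.

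The comparison of EV+ with EV- asked what went with dye uptake among macrophages of ASC-treated rats. No SLC gene passed here in limma, against 0.0222% of all genes, and 8 had an unadjusted p under 0.05 (4.57% of all genes). DESeq2 and edgeR's quasi-likelihood test also called 0, and the likelihood-ratio test called 1, Slc30a4. Limma with the replicate block within EV+ and EV- called none. The 95% interval reached a median of 0.315 to either side on the log2 scale, before any adjustment for the number of genes. The EV+ and EV- libraries did not overlap in 14 SLC genes: 9 (5.70%) were higher in EV+, against 4.25% of all genes, and 5 (3.16%) were lower, against 4.65%.

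Slc30a4 encodes ZnT4, which moves zinc from the cytosol into vesicles. Its EV+ libraries held 0.820, 0.800 and 1.115 CPM and its EV- libraries 2.53, 2.96 and 2.80, with 1.31 and 3.13 in control and 1.70 and 1.85 in GN. The 3 EV+ libraries were the lowest of all 10. The difference was -0.98 (95% interval -1.497 to -0.46, limma, adjusted p = 0.521).

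Slc2a6 was higher in EV+ than in the same-numbered EV- library in all 3 pairs (0.26, 95% interval 0.09 to 0.43, limma, adjusted p = 0.934). Slc12a7 differed by 0.22 in the same direction (95% interval 0.04 to 0.40). Slc39a13, the zinc transporter ZIP13 of the secretory pathway, was at 40.8, 40.8 and 37.5 CPM in EV+ and 35.04, 35.8 and 26.9 in EV- (0.29, 95% interval 0.04 to 0.54). On the lower side, the UDP-galactose transporter Slc35a2 was at 30.3, 31.995 and 32.9 CPM in EV+ and 34.7, 38.99 and 37.2 in EV-. The nucleoside transporter Slc29a1 (ENT1) was at 8.17, 6.74 and 5.75 CPM in EV+ and 7.63, 11.2 and 14.7 in EV-, with overlap.

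Fold changes by family were spread on both sides of 0, with medians near those of all genes in most families. Over all 158 SLC genes the median log2 fold change was 0.04 in GN, 0.06 in EV+ and 0.04 in EV- against control, and the summed SLC level was between 9864 and 10296 CPM in the 10 libraries. Of these genes 57.6% were above 0 in GN and 57.6% in EV+ against control, where 49.9% of all genes were in each, and 58.2% in EV- against control, where 51.3% of all genes were. The share of SLC genes above 0 was 47.5% in EV+ against GN, 56.3% in EV- against GN and 51.3% in EV+ against EV-, beside 47.2%, 50.1% and 47.3% of all genes. The sign counts that follow are descriptions of small shifts, most of them within the spread between libraries.

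**Figure D2:**
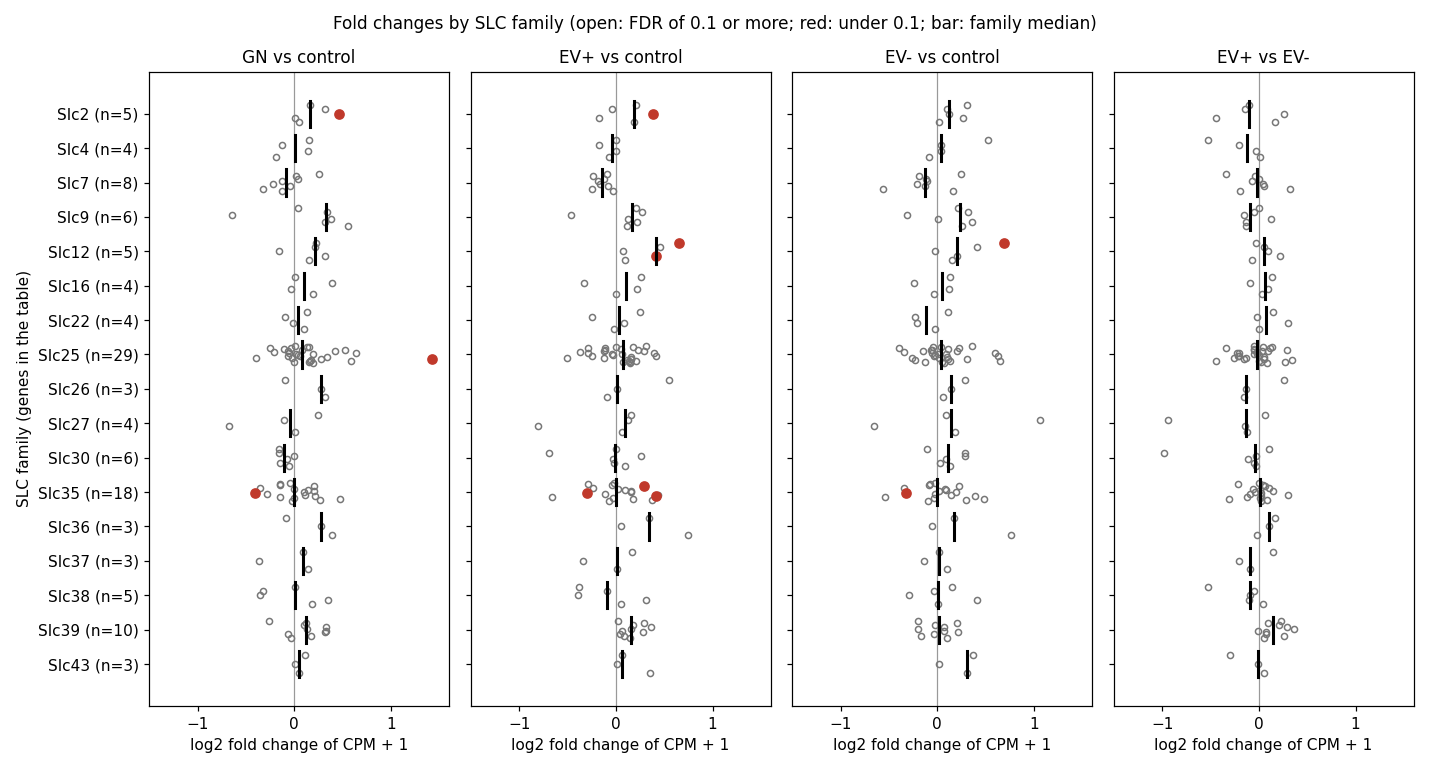
Log2 fold change of CPM + 1 (x axis) for each gene of the 17 SLC families with at least 3 genes (y axis), in 4 comparisons. Open points did not pass the FDR of 0.1, red points did, and black bars are family medians. Called genes lie in Slc2, Slc12, Slc25 and Slc35, and none in EV+ vs EV-.

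In the limma fit of all 10 libraries without a block, no gene of either zinc family was called in any comparison. Slc30a4 was called by the likelihood-ratio test in EV+ against EV-, as given above. All 6 Slc30 genes, which lower cytosolic zinc, had values below 0 in GN against control, with a median of -0.11, and 6 of 6 in EV- and 5 of 6 in EV+ were above GN. These counts share the GN libraries on opposite sides, so low GN values alone would give both directions. Scaling by library totals alone turned 1 of the 6 in GN against control. Their summed level was 202 and 194 CPM in control, 179 and 191 in GN, 209, 213 and 201 in EV+, and 210, 220 and 198 in EV-. Slc30a5 (ZnT5) was at 45.8 and 47.8 CPM in control, 44.4 and 48.96 in GN, 54.1, 58.9 and 56.4 in EV+, and 57.1, 67.0 and 49.5 in EV-.

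The 10 Slc39 genes, which raise cytosolic zinc, were all above 0 in EV+ against control, with a median of 0.15, and 9 of 10 were above 0 in EV+ against EV-. Against control, 7 of 10 in GN (median 0.12) and 5 of 10 in EV- (median 0.02) were above 0. Scaling by library totals alone made these counts 8 in GN and 7 in EV-. The sums were 303 and 281 CPM in control, 317 and 300 in GN, 314, 328 and 320 in EV+, and 290, 303 and 295 in EV-. The EV+ sums lay above all EV- sums and overlapped with GN. No Slc39 gene passed the FDR without a block, whereas Slc39a13 passed in EV+ against control with either replicate block. The direction counts of EV+ held under each of 3 scalings. ZIP8 (Slc39a8), a zinc and manganese importer, was at 24.9, 16.6 and 19.3 CPM in EV+ and 16.2, 19.4 and 14.5 in EV-.

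**Figure D3:**
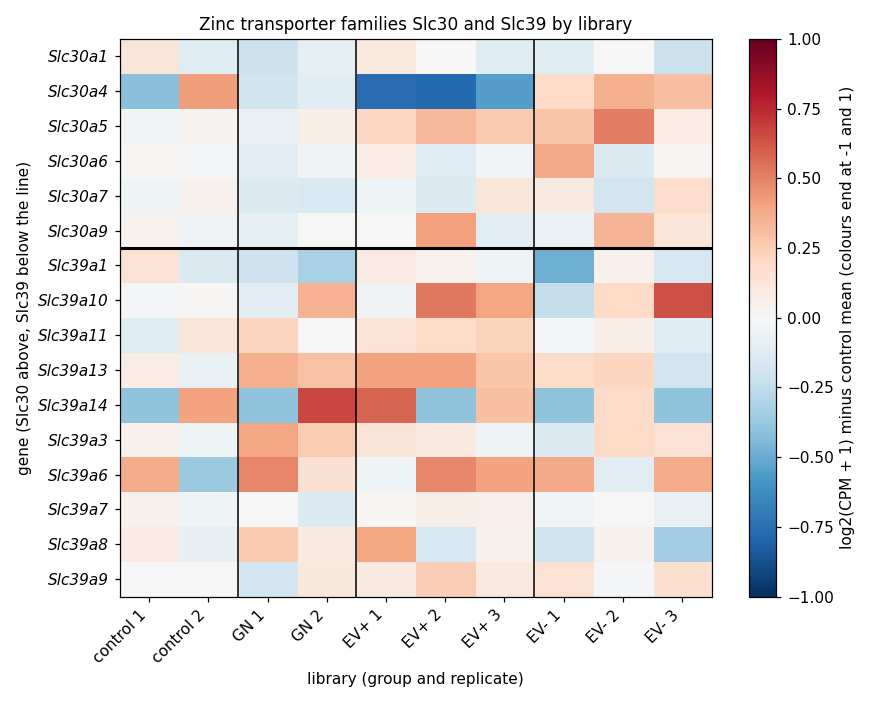
Log2(CPM + 1) minus the mean of the 2 control libraries, as colour, for the 6 Slc30 and 10 Slc39 genes (rows) in the 10 libraries (columns). Red is above and blue below control. Slc30a4 is blue in the 3 EV+ libraries, and Slc39a13 is red in GN and EV+.

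Of the mitochondrial Slc25 carriers, 19 of 29 were above control in GN and 7 of 29 were above GN in EV+, where the median was -0.11. The same GN libraries enter these 2 counts on opposite sides. Slc25a39, the mitochondrial glutathione transporter, was at 166 and 173 CPM in control, 223 and 189 in GN, 192, 182 and 194 in EV+ and 183, 186 and 178 in EV- (GN against control 0.28, limma, adjusted p = 0.241). The phosphate carrier Slc25a3 had 149 to 174 CPM over the 10 libraries. In the limma fit of all 10 libraries without a block, only Slc25a4 among the 29 was called.

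All 5 Slc12 genes were above control in EV+, with a median of 0.42, and Slc12a2 and Slc12a7 of them passed. Slc12a4 and Slc12a9 had log2 fold changes of 0.46 and 0.09 with libraries overlapping. The kinase cofactor gene Cab39, whose product activates the kinases upstream of these cotransporters, was at 440 and 415 CPM in control and 529, 578 and 564 in EV+ (0.38, limma, adjusted p = 0.00901). It was as high in EV-, at 537, 558 and 572 CPM (0.38, adjusted p = 0.0126). The kinase genes Oxsr1, Stk39 and Wnk1 of the same list were not called in any comparison. The part of Cab39 in the Slc12 levels was not tested.

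Of the 8 Slc7 symbols none was above 0 in EV+ against control (median -0.14), and none was called. Slc7a5 and Slc3a2 encode the light and heavy chain of the leucine transporter LAT1. Slc7a5 had 36.5 and 37.9 CPM in control, 34.6 and 33.3 in GN, 32.3, 33.4 and 32.4 in EV+, and 44.8, 27.6 and 33.03 in EV-. Slc3a2 lay between 139.6 and 176 CPM over all libraries, and no difference passed. Slc7a11, the cystine-glutamate exchanger, was at 1.31 CPM or less in every library. Slc7a6os overlaps Slc7a6, and without strand their reads cannot be told apart.

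Slc2a1, the GLUT1 gene, was at 76.96 and 65.5 CPM in control, 72.8 and 86.8 in GN, 69.2, 91.3 and 87.6 in EV+, and 85.0, 84.8 and 94.6 in EV-. All 5 Slc2 genes were above 0 in GN and in EV- against control, and of these Slc2a6 in GN was the only call. In EV+ against control 3 were above 0, Slc2a6 again the only call, and 2 below. Slc15a4, an endolysosomal histidine and peptide transporter, was not called in any comparison and was at 401 and 401 CPM in control, 414 and 428 in GN, 379, 388 and 394 in EV+, and 364, 386 and 389 in EV-. Its EV+ and EV- libraries were all below the GN libraries (EV- against GN -0.15, limma, adjusted p = 0.599).

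Further high-count genes differed little. Slc44a2, a choline transporter-like gene, was between 1101 and 1254 CPM. The concentrative nucleoside transporter Slc28a2 was at 326 and 256 CPM in control, 249.99 and 221 in GN, 308, 263 and 262 in EV+ and 301, 242 and 263 in EV-. Slc43a2, a neutral amino acid transporter, was between 170 and 191 CPM in all libraries. The divalent metal transporter Slc11a2 (DMT1), the relative of Slc11a1, was at 21.4 and 16.7 CPM in control and 13.2 to 19.6 in the other 8, with no call.

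At the low end, 34 of the 158 genes had a mean under 5 CPM, and 8 were at 0 in at least 1 library. Some of these were highest in EV- replicate 1, the library with the high NK and T cell markers. The genes that follow were chosen for this peak after their values were seen. How many of the 34 peaked in other libraries was not counted, so their shared peak is no evidence of a link. Slc27a2, a fatty acid transport and acyl-CoA synthetase gene, was at 4.08, 1.07 and 0.0778 CPM in EV-, and at 0.295 or less in the other 7 libraries. Slc4a11 was at 1.99 CPM in EV- replicate 1 and at 0 in all but 1 of the rest. The amino acid transporters Slc43a1 and Slc38a1 reached 1.118 and 2.48 CPM there, with 0.301 and 1.09 as the highest values elsewhere.

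Slc27a2 did not pass in limma (EV- against GN, log2 fold change 1.17, adjusted p = 0.562), whereas the likelihood-ratio test and DESeq2 called it in EV- against GN, where both GN libraries were at 0. The part of other cells in these values was not tested. Gzmb, Prf1 and Nkg7 were at 50.7, 335 and 75.2 CPM in EV- replicate 1, and Cd3e at 2.09.

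**Figure D4:**
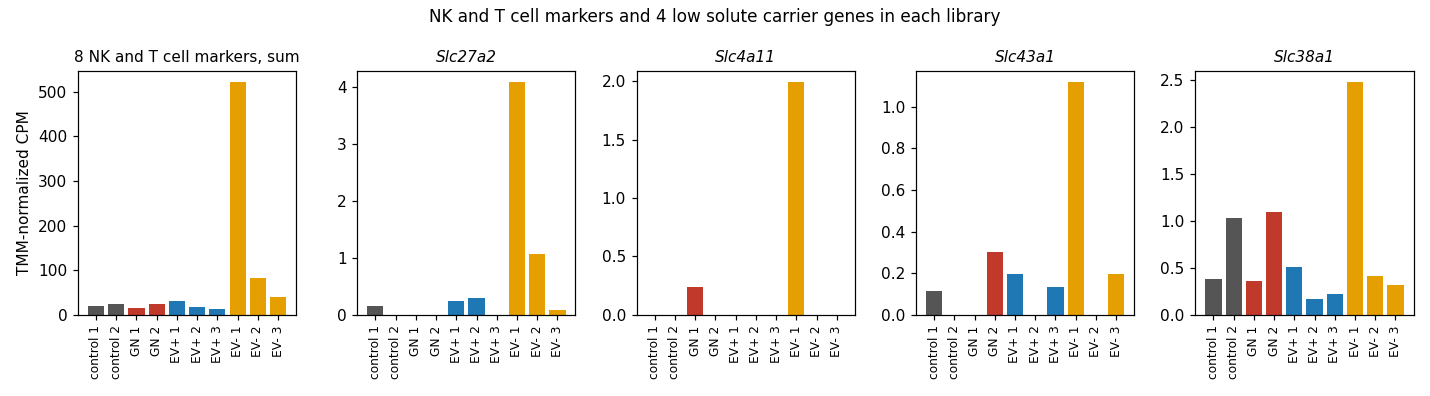
TMM-normalized CPM (y axes, from 0) of the sum of 8 NK and T cell markers and of Slc27a2, Slc4a11, Slc43a1 and Slc38a1 in each of the 10 libraries (x axis). Each of the 5 is highest in EV- replicate 1.

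Transporter genes without an Slc symbol and genes for SLC partners and regulators were read beside them. Of 37 listed transporters, Mfsd6 rose in GN, EV+ and EV- against control, Slco3a1 in EV+ and Spns2 in EV-, and Pqlc1 fell in EV-. Mfsd6 was at 35.6 and 23.4 CPM in control and 39.1 to 46.4 in the other 8 libraries. None of the 37 passed in the other 3 comparisons.

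Of 28 listed partners and regulators, Emb, a chaperone of monocarboxylate transporters, fell in GN (342 and 378 against 277 and 274 CPM, adjusted p = 0.0743). Its relative Bsg was between 272 and 344 CPM, with no call. Atf4, a transcription factor known to raise amino acid transporter genes, fell in EV+ and EV- against control. It was at 548 and 504 CPM in control, 429 and 415 in GN, 364, 364 and 333 in EV+, and 427, 367 and 378 in EV-. The log2 fold changes of Atf4 were -0.57 and -0.43 (limma, adjusted p = 0.00152 and 0.0157). Slc1a4 rose in EV+ and EV- against control, and Slc7a5 and Slc7a11 were not called, the latter being low in every library. The part of Atf4 in the levels of these transporter genes was not tested. Cab39 rose in EV+ and EV-, as given above.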

How the data were processed

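The authors aligned the paired-end reads of SMART-Seq v4 libraries to rn6 with STAR 2.5.3, counted them per RefSeq gene with HTSeq 0.6.0 in its intersection-strict mode, removed genes whose maximum was under 1 CPM, and deposited TMM-normalized CPM values, a signal from which whole reads could be recovered for 100% of values (tolerance 0.1 read). The protocol does not mark strand. The deposited table held 9003 genes in 10 libraries, with 18 symbols turned into dates.

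Fold changes and tests came from limma 3.58.1 in R 4.3.3, with an intensity trend, on log2(CPM + 1). All 10 libraries entered 1 fit of 4 groups with 6 residual degrees of freedom. P-values were two-sided and adjusted by the Benjamini-Hochberg method over all 9003 genes, with an FDR of 0.1. Recovered reads were tested with edgeR 4.0.16 and DESeq2 1.42.0 as alternatives. The methods call the replicates biological. Same-numbered EV+ and EV- libraries deviated together over all genes (r = 0.203, 0.295 and 0.122), and the labels do not state a pairing. Control replicate 1 and EV+ replicate 2, of different numbers, reached 0.141, so the smallest of these is not distinctive. For control and GN the value was 0.0878, but deviations within a group of 2 libraries mirror each other, so it is not a like measure. The limma script was tested on simulated data.

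The SLC genes, marker lists and other gene lists were chosen with earlier results of these data known. Named were all called SLC genes, the 10 with most reads, the 3 highest and 3 lowest fold changes per comparison among genes with a mean of at least 5 CPM, and a fixed list of 24, of which Slc2a3 and Slc4a1 were not in the table. Some genes that this rule names are not reported here. Other SLC genes named (such as Slc30a4, Slc27a2, Slc39a13 and Slc52a3) were chosen after their values were seen. Levels were not compared between genes, since lengths were not used here. Floors and intervals cover counting error or the spread between libraries only. Promoter windows came from RefSeq (GRCr8).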

Additional observations from a re-analysis of the deposited data

How the results depend on the processing

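With edgeR's likelihood-ratio test the number of SLC genes called was 12 among the 4 groups, 1 in EV+ against GN, 2 in EV- against GN, 1 in EV+ against EV- and 7 in EV- against control. With DESeq2 it was 12 among the 4 groups, 1 in EV+ against GN, 2 in EV- against GN and 8 in EV- against control. At an FDR of 0.05 it was 1 among the groups, 3 in GN against control, 3 in EV+ against control and 1 in EV- against control. A replicate block within EV+ and EV- alone, chosen after seeing the data, gave 11 among the groups, 1 in EV+ against GN, 2 in EV- against GN, 12 in EV+ against control and 9 in EV- against control. The replicate block over all groups gave 5 in GN against control, 7 in EV+ against control and 5 in EV- against control. It ended the calls of Slc1a4 among the groups (adjusted p = 0.121) and of Slc35c2 in EV+ against control, and no other call of the 10 genes. Why these settings moved the counts was not tested.

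Leaving out each library in turn gave 0 to 5 calls among the groups, 0 to 5 in GN against control, 0 to 0 in EV+ against GN, 0 to 1 in EV- against GN, 0 to 0 in EV+ against EV-, 0 to 7 in EV+ against control and 0 to 4 in EV- against control. A group left with 1 library was assumed to vary like the others. Slc25a4 in GN against control was lost with a pseudocount of 0.1 and with edgeR's quasi-likelihood test (adjusted p = 0.117), which also ended Slc11a1 among the groups and Slc35e1 in EV+ against control (adjusted p = 0.103 and 0.111), with either scaling. No called fold change reversed under any of these alternatives. Groups of 2 or 3 libraries limit the precision, and genes near the floor of 3 reads are the least certain.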
